A study of Homo sapiens with 6 samples.

Results

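Chemokines are small secreted proteins that draw leukocytes along a concentration gradient. The ELR chemokines carry the residues glutamate, leucine and arginine ahead of their CXC cysteines, bind CXCR2 and in part CXCR1, and attract neutrophils. In human they lie together on the long arm of chromosome 4. The genes described here are 10 chemokine genes: the chromosome 4 ELR genes CXCL1, CXCL2, CXCL3, CXCL5, CXCL6 and CXCL8, and 4 chemokines from elsewhere in the genome, CCL2, CCL5, CCL20 and CXCL16. They were taken by symbol from tables of 62703 genes, and all 10 were found.

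RNA was sequenced from bulk cultures of MDA-MB-231 (a line from a triple-negative breast tumour of human origin) carrying short hairpin RNA against RNF20 (shRNF20, 3 libraries) or a control hairpin (shControl, 3 libraries). RNF20 is a ubiquitin ligase for histone H2B, and the study's title links it to immunosuppression. The labels give neither the number of hairpins against RNF20 nor whether the cells were clones, and no time after transduction.

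ELR chemokine genes are classical targets of NF-kB and of the interleukin-1 and TNF receptors that activate it, and breast cancer cells of the basal type often secrete them. The stretch just ahead of the transcription start holds the best known NF-kB site of the family. The RefSeq promoter table (GRCh38.p14) matched 7 of the 10 members. All 6 chromosome 4 promoters held the letters GGAATTTCC, the site described for CXCL8, between 77 and 91 bases before the start. Of all 35116 promoters there, 145 (0.413%) held these letters in the 250 bases before the start on either strand. The 140 bases before the start are shown for the chromosome 4 genes because the site stands at nearly the same place in genes that changed by very different amounts, and for CCL20 as a chemokine from another chromosome. Each runs 5′ to 3′ on the gene's own strand and ends at the RefSeq start, which can differ from the gene bounds of GENCODE given with the values. Capitals mark GGAATTTCC, or in CCL20, which lacks it, the match to the kappaB consensus on the other strand.
CXCL8 (chr4:73740429-73740568, plus strand): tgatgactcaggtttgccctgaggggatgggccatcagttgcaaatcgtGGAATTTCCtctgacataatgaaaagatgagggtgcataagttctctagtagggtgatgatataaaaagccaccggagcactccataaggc
CXCL6 (chr4:73836538-73836677, plus strand): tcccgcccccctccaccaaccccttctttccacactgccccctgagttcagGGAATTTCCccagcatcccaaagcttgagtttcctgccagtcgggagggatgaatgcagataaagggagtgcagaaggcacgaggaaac
CXCL1 (chr4:73869253-73869392, plus strand): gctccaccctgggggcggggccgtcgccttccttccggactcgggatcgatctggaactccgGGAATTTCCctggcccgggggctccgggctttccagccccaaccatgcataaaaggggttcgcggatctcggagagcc
CXCL5 (chr4:73998678-73998817, minus strand): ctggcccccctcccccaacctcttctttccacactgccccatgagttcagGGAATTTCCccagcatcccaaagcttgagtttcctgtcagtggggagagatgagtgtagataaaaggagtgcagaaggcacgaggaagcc
CXCL3 (chr4:74038690-74038829, minus strand): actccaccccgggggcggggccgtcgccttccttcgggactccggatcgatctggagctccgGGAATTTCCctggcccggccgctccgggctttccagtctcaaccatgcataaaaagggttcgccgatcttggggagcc
CXCL2 (chr4:74099196-74099335, minus strand): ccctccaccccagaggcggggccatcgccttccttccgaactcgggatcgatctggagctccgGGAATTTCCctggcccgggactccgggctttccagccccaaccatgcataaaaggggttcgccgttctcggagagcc
CCL20 (chr2:227813702-227813841, plus strand): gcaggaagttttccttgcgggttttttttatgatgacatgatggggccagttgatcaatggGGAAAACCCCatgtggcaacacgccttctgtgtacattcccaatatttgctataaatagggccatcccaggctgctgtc

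These promoters fell into pairs and triplets of close copies. The windows of CXCL1 and CXCL2 were 91.5% identical, those of CXCL1 and CXCL3 90.7% and those of CXCL2 and CXCL3 87.9%. CXCL5 and CXCL6 shared 90.1% of their bases. The CXCL8 window had no close copy, with 43.5% to 49.3% identity to the other chromosome 4 windows. Between the triplet and the CXCL5 and CXCL6 pair, identity was also low, at 49.0% to 53.6%. The CXCL8 promoter was the only one of the 7 to hold TGANTCA, the AP-1 motif, which 6.57% of all promoters held. The kappaB consensus (5.21% of all promoters) was matched in 6 of the 7 members and overlaps GGAATTTCC where both occur. CXCL8 matched the shorter form only.

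Gene counts ranged from 21988826 to 29685306 per library. RNF20 itself stood at 12.5 ± 1.52 CPM in shRNF20 libraries and 58.1 ± 0.340 CPM in shControl libraries (CPM, counts per 1000000 after TMM scaling; SD, n = 3 each). Mitochondrial transcripts took 4.91% to 6.22% of gene counts in shRNF20 libraries and 0.934% to 1.38% in shControl libraries. Of the labelled line's 6 mesenchymal markers, 4 were lower with the knockdown (CD44, ZEB1, VIM and EGFR). The EGFR call was lost in 8 of 16 alternative fits. The 6 markers summed to 2831 to 2845 CPM in shRNF20 libraries and 3402 to 3930 CPM in shControl libraries. Of 6 luminal and HER2 markers, 4 were tested: ESR1 (33 to 39 counts in shRNF20 libraries and 0 to 5 in shControl libraries) and ERBB2 (means of 139 CPM in shRNF20 and 102 CPM in shControl) were higher, CDH1 was lower (6.99 CPM in shRNF20 and 18.2 CPM in shControl), and GATA3 did not pass. PGR and FOXA1 had too few counts. Of 12 leukocyte markers, 3 were tested: CSF1R was lower (29 to 42 counts in shRNF20 libraries and 50 to 71 in shControl libraries), and CD8A and PTPRC did not pass. The CSF1R call was lost in 6 of 16 alternative fits. MS4A1 had no count, CD3E had 1 count in all, and the list summed to 2.95 to 4.49 CPM in shRNF20 libraries and 4.26 to 5.21 CPM in shControl libraries. Of 8 fibroblast and endothelial markers 3 were higher (LUM, COL3A1, PDGFRB) and 1 lower (PECAM1), and the list summed to 35.1 to 38.4 CPM in shRNF20 libraries and 15.8 to 26.8 CPM in shControl libraries. A fit without mitochondrial genes, which takes out only their counts, gave the chromosome 4 chemokine genes a median log2 fold change of -1.60. With them it was -1.59. Any other part of these differences in the chemokine results was not tested. Over all genes tested, 29.8% were called lower and 28.7% higher.

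The shRNF20 libraries held less mRNA of most of these chemokines than the shControl libraries. Of the 10 genes, 8 had enough counts to be tested. Expression fell for 7 of them (CXCL1, CXCL2, CXCL3, CXCL5, CXCL8, CCL5 and CCL20) and rose for CXCL16 (edgeR's quasi-likelihood test, Benjamini-Hochberg adjusted p under 0.05 over all 15797 genes tested). CXCL6 and CCL2 were at or near 0. CCL5 had enough counts in shControl libraries only, so it could only be called lower. Among all genes tested 29.8% were called lower and 28.7% higher, so a call by itself was common in these libraries. All 3 shRNF20 libraries lay below all 3 shControl libraries for the 7 genes, a pattern seen in 32.8% of all genes, and above them for CXCL16, as in 33.5% of all genes. The falls were large beside the changes of most genes, but the chemokines were chosen with earlier results of these data known. The median log2 fold change over all genes was -0.01, and 9.65% of genes fell as far as CXCL2, the least changed of the 7. These values are a description only. Without shControl replicate 3 CXCL2 was at -0.71, and the share was not computed there. In bulk RNA, fewer expressing cells and less RNA per cell cannot be told apart.

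**Figure D1:**
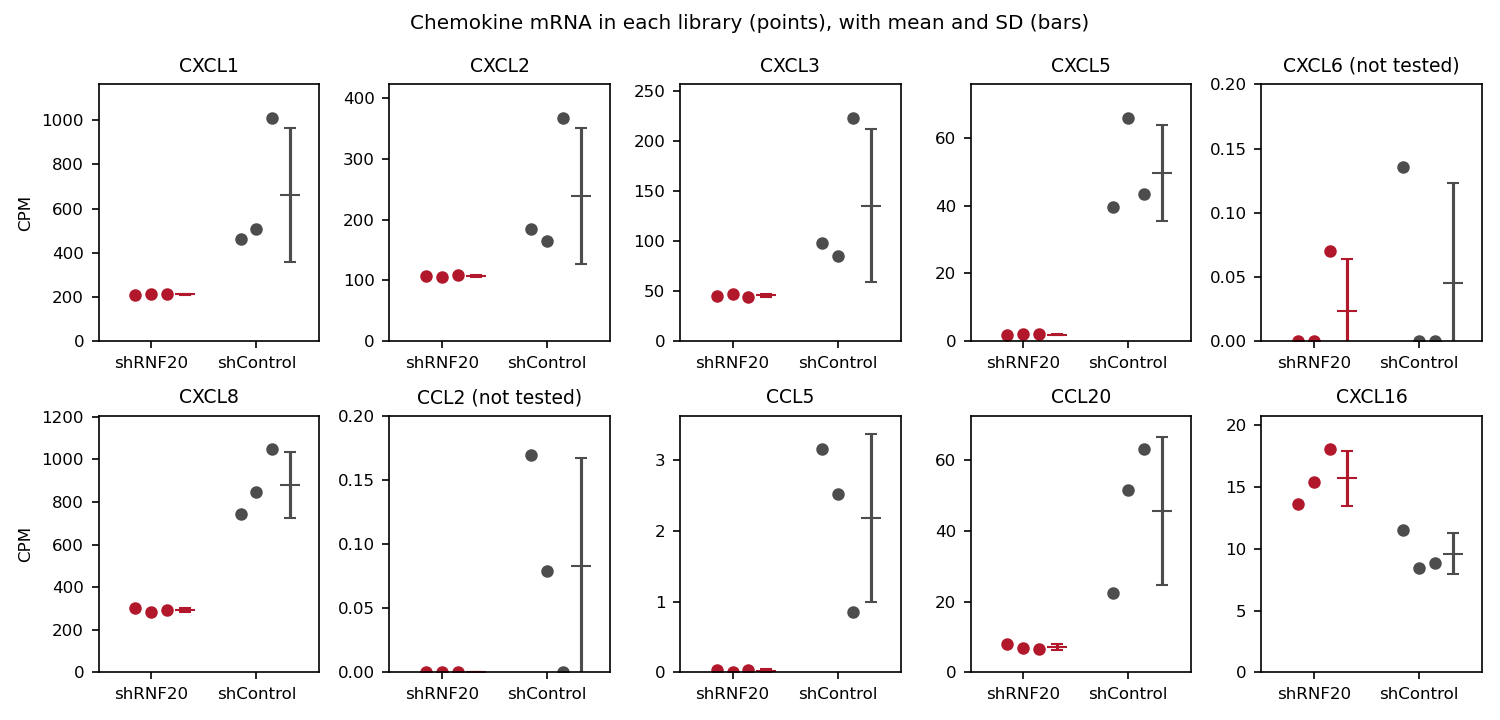
CPM of the 10 chemokine genes in each library, 1 panel per gene with its own axis from 0. Points are libraries and bars the mean and SD over 3 libraries. The shRNF20 points of CXCL1, CXCL2, CXCL3, CXCL5, CXCL8, CCL5 and CCL20 lie below all shControl points, and those of CXCL16 above.

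CXCL8, or interleukin-8, the main human neutrophil attractant, had 303, 282 and 294 CPM in shRNF20 libraries and 744, 848 and 1047 CPM in shControl libraries. The groups lay far apart, and no control library came near the knockdown values. The fall was 3.0-fold, or -1.59 on the log2 scale (SE 0.12, edgeR adjusted p = 2.45e-05). The gene, ENSG00000169429.12, lies on chromosome 4 of GRCh38 at 73740506 to 73743716. CXCL8 kept its call in all 16 alternative fits, with log2 fold changes from -1.72 to -1.45.

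CXCL1, CXCL2 and CXCL3 arose by duplication from a common ancestor and act on CXCR2. CXCL1 (chromosome 4, 73869393 to 73871242) had 208, 214 and 212 CPM in shRNF20 libraries and 462, 508 and 1011 CPM in shControl libraries, a 3.12-fold fall (log2 change -1.64, SE 0.27, edgeR adjusted p = 9.31e-04). CXCL2 (chromosome 4, 74097035 to 74099293) had 107, 105 and 108 CPM in shRNF20 libraries and 185, 164 and 368 CPM in shControl libraries, a 2.23-fold fall (-1.16, SE 0.27, edgeR adjusted p = 0.00561). CXCL3 (chromosome 4, 74036589 to 74038807) had 44.9, 47.2 and 44.3 CPM in shRNF20 libraries and 98.1, 85.2 and 223 CPM in shControl libraries, a 2.98-fold fall (-1.57, SE 0.32, edgeR adjusted p = 0.00320). For each of the 3 genes shControl replicate 3 stood far above both other controls, while the knockdown libraries were almost level.

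Without shControl replicate 3 the falls of these genes were smaller, at -1.21 for CXCL1, -0.71 for CXCL2 and -1.02 for CXCL3, and all 3 still passed (edgeR adjusted p = 5.17e-05, 3.37e-04 and 1.67e-04). CXCL1, CXCL2 and CXCL3 did not pass once the 3 shRNF20 libraries had been added up as a single sample (edgeR adjusted p = 0.0669, 0.143 and 0.110), and CXCL2 and CXCL3 did not pass with no filter on low counts (0.0997 and 0.0765). Reads that fit several places were not counted, which bears on this triplet: 4.81%, 12.5% and 6.01% of the 50-base words in the transcripts of CXCL1, CXCL2 and CXCL3 also occurred in another gene's transcripts, mainly in each other's. No word of CXCL8 did.

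CXCL5, a neutrophil attractant also known as ENA-78, showed the deepest fall of the 5 tested chromosome 4 chemokine genes. It had 1.65, 1.95 and 1.90 CPM in shRNF20 libraries and 39.7, 65.9 and 43.4 CPM in shControl libraries. In raw reads this was 43, 43 and 54 counts with the knockdown and 1173, 1670 and 1019 counts in controls. The fall was 27.0-fold, or -4.76 on the log2 scale (SE 0.23, edgeR adjusted p = 5.47e-06), at chromosome 4, 73995642 to 73998779, and only 0.0633% of all genes tested had a lower log2 fold change. With the 2 strand columns summed, CXCL5 had 161% of its count without strand, since reads that overlap genes on both strands are left out of the latter. Its log2 fold change from the sum was -4.89.

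CXCL6, the nearest relative of CXCL5, was barely detected. It had 0, 0 and 2 counts in shRNF20 libraries and 4, 0 and 0 counts in shControl libraries. It was not tested. Its promoter window is the one 90.1% identical to that of CXCL5.

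The make-up of the cluster's output shifted along with its amount. Counts of the 6 chromosome 4 genes together came to 664, 650 and 661 CPM in shRNF20 libraries and 1528, 1671 and 2691 CPM in shControl libraries. CXCL5 supplied 0.249% to 0.300% of these counts in shRNF20 libraries and 1.61% to 3.95% in shControl libraries. Its shares are from the counts without strand, which miss CXCL5 reads that the strand columns hold. CXCL2 supplied 16.1% to 16.3% in shRNF20 libraries and 9.82% to 13.7% in shControl libraries, and neither range overlapped. CXCL8 supplied 43.4% to 45.5% in shRNF20 libraries and 38.9% to 50.7% in shControl libraries, and its ranges overlapped, as did those of CXCL1 and CXCL3. There were 4.53 to 4.78 counts of CXCL1 per count of CXCL3 in shRNF20 libraries and 4.53 to 5.96 in shControl libraries. CXCL1 and CXCL2 did shift against each other, with 1.94 to 2.03 counts of CXCL1 per count of CXCL2 in shRNF20 libraries and 2.50 to 3.09 in shControl libraries.

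CCL20 attracts cells with the receptor CCR6, such as Th17 cells and immature dendritic cells. It had 8.16, 6.90 and 6.68 CPM in shRNF20 libraries and 22.5, 51.5 and 63.1 CPM in shControl libraries. Even the lowest control, replicate 1, was well above the knockdown libraries. The fall was 6.29-fold, or -2.65 on the log2 scale (SE 0.34, edgeR adjusted p = 2.82e-04), at chromosome 2, 227805739 to 227817564, and the value was -3.00 without shControl replicate 1.

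CCL5, or RANTES, recruits T cells and monocytes. It had 1, 0 and 1 counts in shRNF20 libraries and 93, 64 and 20 counts in shControl libraries. The transcript was thus scarce in controls and close to undetected with the knockdown. Over the summed libraries the shRNF20 rate was 1.16% of the shControl rate (exact 95% interval 0.139% to 4.24%, counting error only). The gene, on chromosome 17 at 35871491 to 35880793, passed the test (edgeR adjusted p = 2.73e-04). It passed the count filter only through the shControl libraries, so it could only be called lower, and its p-value is no separate support. Of the 50-base words of its transcripts 13.9% also occurred in transcripts of other genes.

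CCL2, the main monocyte attractant, had no count in any shRNF20 library and 5, 2 and 0 counts in shControl libraries. It was too low to test, and 0 counts over the shRNF20 group allow up to 0.0392 CPM (3 counts of the group's total).

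CXCL16 went the other way. It is made as a membrane protein, binds CXCR6 on T cells, and is released by ADAM10 and ADAM17. CXCL16 had 13.6, 15.4 and 18.0 CPM in shRNF20 libraries and 11.5, 8.45 and 8.86 CPM in shControl libraries. The rise was 1.63-fold, or 0.71 on the log2 scale (SE 0.16, edgeR adjusted p = 0.00586), at chromosome 17, 4733526 to 4739922. With the shRNF20 libraries summed to 1 sample it did not pass (edgeR adjusted p = 0.0927). Its strand columns summed to 129% of the count without strand, and the log2 fold change from that sum was 0.63.

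**Figure D2:**
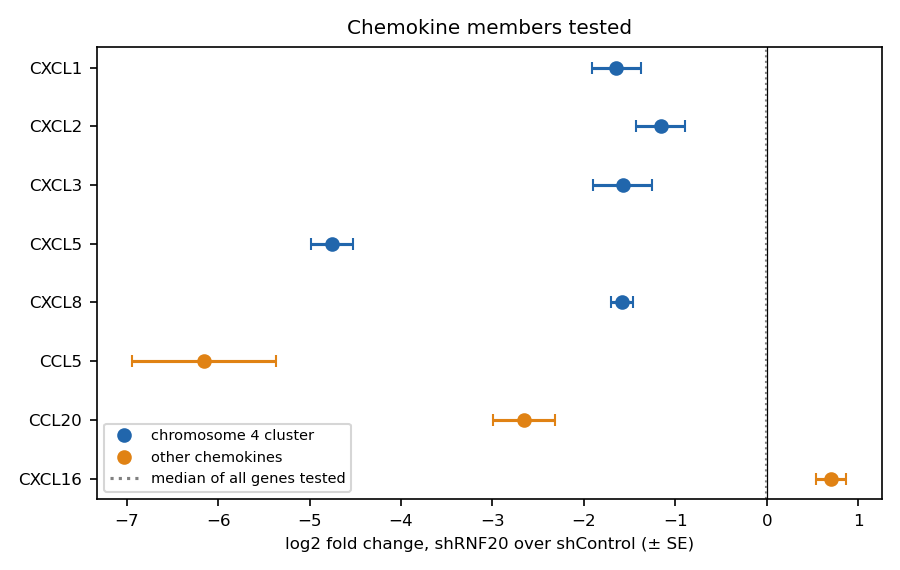
Log2 fold change of shRNF20 over shControl for the 8 tested chemokine genes, with its SE, in blue for the chromosome 4 genes and orange for the others. CXCL1, CXCL3 and CXCL8 lie between -1.64 and -1.57, CXCL5 and CCL5 far lower, and CXCL16 above 0; the fitted value of CCL5 depends on the prior count because its shRNF20 counts are near 0.

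Set against each other, all 5 tested chromosome 4 genes were lower, with a median log2 fold change of -1.59, and the 3 tested genes from other chromosomes went both ways, 2 lower and 1 higher, with a median of -2.65 that is the value of CCL20. That order of the medians turned round with a filter of at least 1 CPM in 3 libraries, which drops CCL5: the median was then -1.57 for the chromosome 4 genes and -0.96 for the others. The range was -4.76 to -1.16 on chromosome 4. The fall of CCL20 was deeper than those of CXCL1, CXCL2, CXCL3 and CXCL8. A fall of this size was thus not particular to the cluster. CCL5 fell further still, but it passed the count filter only through the shControl libraries. CXCL1, CXCL3 and CXCL8 lay within their standard errors of each other, but not without shControl replicate 3, where CXCL3 was at -1.02 and CXCL8 at -1.45. No member's call or direction changed when any 1 library was left out: 7 were lower and 1 higher each time. Leaving out 1 shRNF20 library is a weak check, because these libraries differed little for most members.

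**Figure D3:**
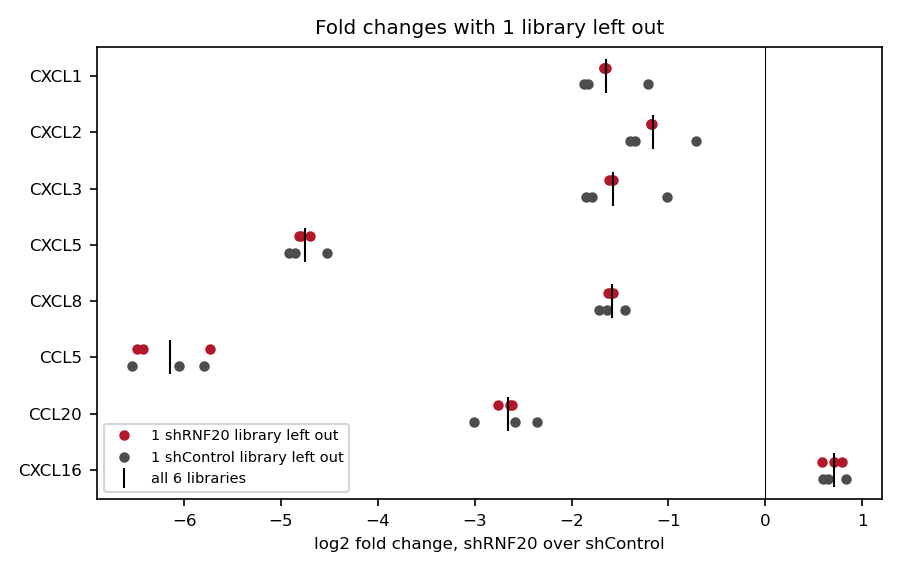
Log2 fold change of each tested chemokine gene with 1 library left out, red for shRNF20 libraries and grey for shControl libraries; the black mark is the value from all 6. For CXCL1, CXCL2 and CXCL3 leaving out a control moves the value more than leaving out an shRNF20 library, up to -0.71 for CXCL2, and no value in the plot crosses 0.

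Levels per kilobase of exon give the order of the chemokines within each group. In shRNF20 libraries CXCL1 led with a mean of 163 CPM per kilobase, followed by CXCL8 (129), CXCL2 (71.2), CXCL3 (20.5), CXCL16 (5.61), CCL20 (4.54) and CXCL5 (0.723). In shControl libraries the order was CXCL1 (509), CXCL8 (387), CXCL2 (159), CXCL3 (61.1), CCL20 (28.7), CXCL5 (19.6), CXCL16 (3.43) and CCL5 (1.44). By these means CXCL16 stood above CXCL5 and CCL20 in shRNF20 and below both in shControl. Within the shRNF20 group CXCL16 (4.86 to 6.45) was above CCL20 (4.19 to 5.12) in libraries 2 and 3 and below it in library 1. In shControl CXCL1 (356 to 780) and CXCL8 (327 to 460) overlapped in range, but CXCL1 was the higher in every library. By CPM without division by length, CXCL8 was instead above CXCL1 in every library of both groups. The order of this pair thus depends on the exon lengths used, 1296 bases for CXCL1 and 2274 for CXCL8. CCL20 (14.1 to 39.6) was above CXCL5 (15.7 to 26.0) in shControl libraries 2 and 3 and below it in library 1, so the order of that pair differed between libraries. The places of CXCL5 and CXCL16 also depend on the counts without strand. With the strand columns summed, they had 161% and 129% of those counts, and levels per kilobase were not computed from the sums.

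Spread between replicates was unequal. The coefficient of variation was 1.44%, 1.31% and 3.32% for CXCL1, CXCL2 and CXCL3 in shRNF20 libraries and 46.1%, 46.9% and 56.2% in shControl libraries. CXCL8 varied by 3.52% in shRNF20 and 17.5% in shControl, and CXCL16 by 14.2% in shRNF20 and 17.1% in shControl. The highest control was replicate 3 for CXCL1, CXCL2, CXCL3, CXCL8 and CCL20, replicate 2 for CXCL5 and replicate 1 for CCL5, so the controls did not share 1 order. Whether the replicates were cultured separately is not in the labels, and p-values then measure only the spread between these samples. Chi-square per degree of freedom was 2.06 to 6.80 between shRNF20 libraries and 31.9 to 51.5 between shControl libraries. If the shRNF20 libraries are repeats of 1 culture, the p-values, which pool the spread of both groups, are too small.

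The chromosome 4 members span 359 kb, and the genes around them were compared too. Only genes with a GENCODE 29 entry could be placed, 58220 of 62703. Within 1 Mb on either side lay 39 other such genes with a row in the tables, 17 of them without a count. Of 9 tested, 6 were lower (against 29.8% of all genes tested), 0 higher (against 28.7%) and 3 did not pass in edgeR. Their median log2 fold change was -0.52. At an unadjusted p under 0.05, 1 was higher, and DESeq2 and limma-voom each called 1 higher. AREG, which encodes the EGFR ligand amphiregulin, had 93.7, 94.6 and 91.5 CPM in shRNF20 libraries and 248, 321 and 222 CPM in shControl libraries (log2 change -1.50, SE 0.13, edgeR adjusted p = 3.92e-05). ANKRD17 was at -0.52 (SE 0.07, edgeR adjusted p = 3.64e-04). Named after their values were seen, the tumour suppressor gene RASSF6, next to CXCL8, was at -1.34 (edgeR adjusted p = 0.00322), MTHFD2L, next to CXCL2, at -0.10 (edgeR adjusted p = 0.564), and EREG, the EGFR ligand gene beside AREG, at 0.41 (edgeR adjusted p = 0.0515). Also named after their values were seen, BTC was at -1.25 (edgeR adjusted p = 0.00174), COX18 at -0.28 (edgeR adjusted p = 0.0348) and PARM1, near the far edge of the window, at -2.46 (edgeR adjusted p = 6.32e-04), the lowest of the 9. Lower genes thus lay on both sides of the cluster and out to the edge of the window, beside others that did not pass.

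**Figure D4:**
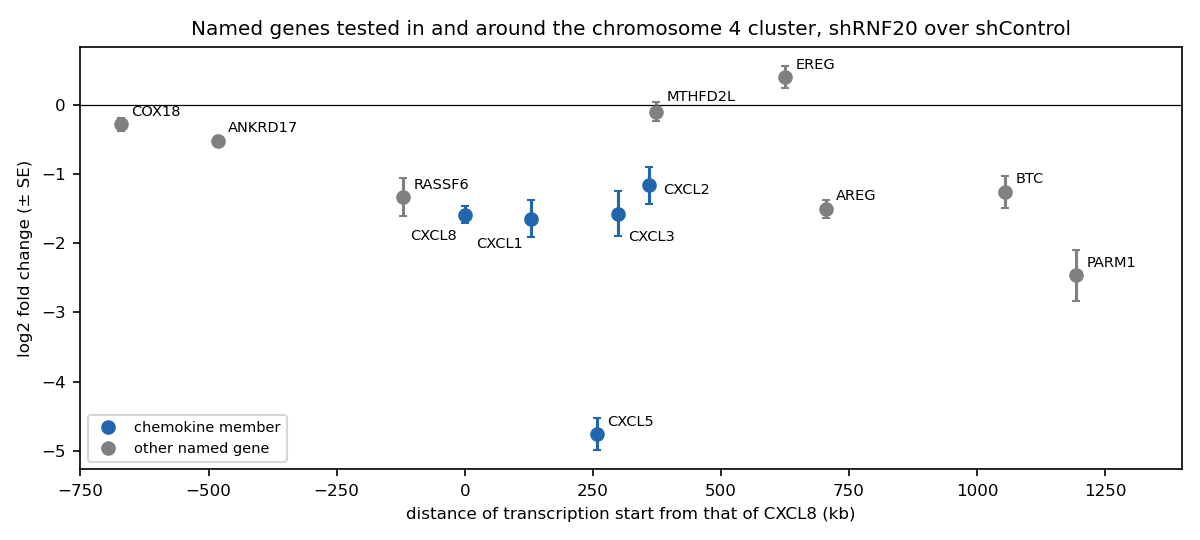
Log2 fold change with SE of the named genes tested in and around the chromosome 4 cluster, against the distance of their transcription start from that of CXCL8 in kb. Chemokine members are blue and other genes grey; CXCL5 is the lowest at -4.76, and MTHFD2L and EREG beside the cluster lie near or above 0.

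The other chemokine genes were mostly silent. Of 37 listed, 36 had a row, 20 of these had no count at all, and 5 were tested. Of the 5, 3 were lower (against 29.8% of all genes tested), 1 higher (against 28.7%) and 1 did not pass. Their median was -1.68, the value of CX3CL1. CXCL10 and CXCL11, 2 of the 3 lower genes, passed the count filter only through the shControl libraries and could only be called lower. The share and the median are therefore a description only. CX3CL1, or fractalkine, a membrane-bound attractant of T cells and monocytes, had 14.1, 13.1 and 13.8 CPM in shRNF20 libraries and 28.9, 58.2 and 43.9 CPM in shControl libraries (log2 change -1.68, SE 0.22, edgeR adjusted p = 3.49e-04). The interferon-induced T cell attractants CXCL10 and CXCL11 were low throughout. CXCL10 had 3, 0 and 3 counts in shRNF20 libraries and 47, 16 and 47 in shControl libraries (edgeR adjusted p = 0.00123), and CXCL11 had 10, 2 and 5 counts in shRNF20 libraries and 120, 34 and 42 in shControl libraries (edgeR adjusted p = 0.00133). CCL28, a mucosal chemokine, rose to 23.1, 22.4 and 20.1 CPM in shRNF20 libraries, against 12.3, 12.4 and 15.8 CPM in shControl libraries (0.69, SE 0.13, edgeR adjusted p = 0.00214), a call lost with the shRNF20 libraries summed (edgeR adjusted p = 0.0787).

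The receptors for these ligands were nearly absent from the cells. CXCR1 and CXCR2, which bind the ELR chemokines, and CCR6, the receptor of CCL20, had no count in any library, which allows up to 0.102 to 0.136 CPM per library. CXCR6, the receptor of CXCL16, had 9, 14 and 30 counts in shRNF20 libraries and 5, 0 and 7 in shControl libraries and was not tested. Of 23 receptor genes 5 were tested, and 2 of the 5 were lower (against 29.8% of all genes tested). These were CCRL2 (-0.72, SE 0.16, edgeR adjusted p = 0.00439) and CCR7 (-0.92, SE 0.32, edgeR adjusted p = 0.0326), and the median of the 5 was -0.68. The CCR7 call was lost in 5 of 16 alternative fits, among them those without shControl replicate 2 and without any 1 shRNF20 library, and the CCRL2 call in 1.

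Upstream of the chemokines, the interleukin-1 genes IL1A and IL1B fell with them, while genes of their signalling path and of NF-kB went both ways. IL1A had 9.50, 9.12 and 11.5 CPM in shRNF20 libraries and 59.6, 84.2 and 112 CPM in shControl libraries (log2 change -3.08, SE 0.23, edgeR adjusted p = 2.12e-05). IL1B had 20.5, 17.3 and 20.9 CPM in shRNF20 libraries and 115, 224 and 256 CPM in shControl libraries (-3.34, SE 0.28, edgeR adjusted p = 3.53e-05). Both cytokines activate the receptor encoded by IL1R1, itself at -1.68. Its co-receptor IL1RAP (0.55) and the adaptors MYD88 (0.58) and TRAF6 (0.74) rose (edgeR adjusted p = 0.00146, 0.00118 and 0.00120). The kinase genes IRAK4 (-0.65), MAP3K7 (-0.30) and IKBKB (-0.61) of the path fell (edgeR adjusted p = 8.71e-04, 0.0137 and 7.41e-04). CHUK, another, rose (0.70, edgeR adjusted p = 1.96e-04). TNF had 2, 3 and 2 counts in shRNF20 libraries and 7, 3 and 0 in shControl libraries and was not tested. Of 25 tested genes of this group of 27, 8 were lower and 8 higher, with a median of -0.13. These counts are near the shares of all genes tested, 29.8% lower and 28.7% higher. With the shRNF20 libraries summed, 4 genes of this group passed in all.

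Factors that act on chemokine promoters were tested in full. Of 17 tested, 6 were lower, 1 was higher and 10 did not pass, and the median was -0.19. For comparison, 29.8% of all genes tested were lower and 28.7% higher. The AP-1 subunits JUND (-1.12, SE 0.10, edgeR adjusted p = 4.29e-05) and FOSL1 (-0.64, SE 0.06, edgeR adjusted p = 7.66e-05) were lower and the interferon regulatory factor IRF1 was higher (1.04, SE 0.12, edgeR adjusted p = 1.43e-04). CEBPB, which binds the CXCL8 promoter, stood at 245 ± 13.3 CPM in shRNF20 libraries and 279 ± 70.2 CPM in shControl libraries (edgeR adjusted p = 0.340). Chemokine mRNAs carry AU-rich elements that hasten their decay. Of 13 factors acting on such mRNAs, 4 were lower (against 29.8% of all genes tested) and 5 higher (against 28.7%), with a median of 0.16. The kinase MAPKAPK2, which stabilises them, was at -0.72 (SE 0.06) and the decay factor ZFP36L2 at -1.0 (SE 0.09); edgeR adjusted p was 3.95e-05 for MAPKAPK2 and 6.01e-05 for ZFP36L2. The higher genes were TIAL1 (0.78), HNRNPD (0.54), TIA1 (0.54), RC3H1 (0.44) and ELAVL1 (0.24), and the other lower ones ZFP36L1 (-0.47) and ZC3H12A (-0.48). Calls were lost in 10 of 16 alternative fits for ZC3H12A, 8 for ELAVL1 and 3 for RC3H1, including fits without 1 shRNF20 library.

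Among 14 tested genes of 17 that process or present chemokines, 6 were lower and 4 higher, with a median of -0.01. The shares over all genes tested were 29.8% lower and 28.7% higher. ADAM17, a sheddase of CXCL16, rose with it, to 107, 106 and 111 CPM in shRNF20 libraries, against 55.4, 61.5 and 58.5 CPM in shControl libraries (log2 change 0.89, SE 0.07, edgeR adjusted p = 3.10e-05), and the other sheddase ADAM10 also rose (0.44, SE 0.12, edgeR adjusted p = 0.0109). GPC1 (1.23) and DPP4 (0.61), a protease that trims chemokines, were the other higher genes. MMP1 (-3.26, SE 0.21) and EXT1 (-0.81, SE 0.06), a heparan sulfate polymerase, had the smallest p among the lower genes. ADAM10 did not pass with the shRNF20 libraries summed, and DPP4 not in 5 of 16 alternative fits, among them those without shControl replicate 3 and without any 1 shRNF20 library.

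**Figure D5:**
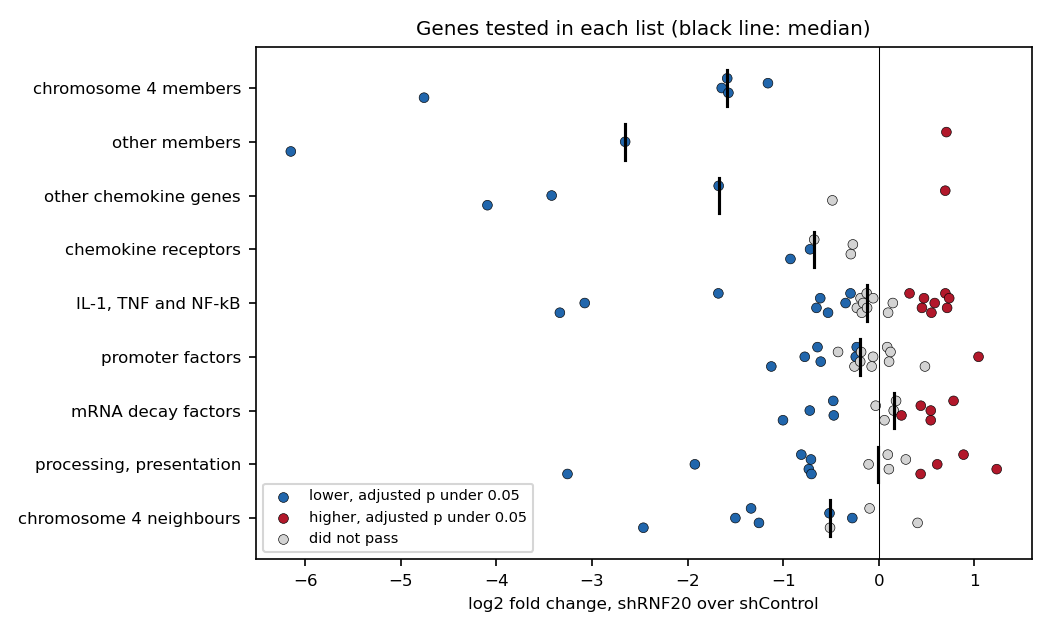
Log2 fold change of every tested gene in each list, 1 row per list, blue for lower, red for higher and grey for genes that did not pass; the black line is the median. The chemokine rows lie furthest left, with medians of -1.59, -2.65 and -1.68, and the NF-kB, promoter factor, decay and processing rows straddle 0. In these chemokine rows CCL5, CXCL10 and CXCL11 passed the count filter only through the shControl libraries.

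Other genes with these letters went both ways. Apart from the members, promoters of 131 gene symbols held GGAATTTCC, and 58 of these genes were tested: 37.9% were lower and 22.4% higher, with a median of -0.24. Among all 11278 tested genes that have a RefSeq promoter, 31.96% were lower and 27.7% higher, with a median of -0.05. CXCL10 and CXCL11 were among the 58, as were NFKBIA at -0.06 (edgeR adjusted p = 0.634) and NFKBIZ at 0.71 (edgeR adjusted p = 0.00188), 2 genes of NF-kB feedback. A match of letters is a description of the sequence only.

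The genes that followed the chromosome 4 chemokines most closely were found by Pearson's r between each gene's log2 CPM and the mean log2 CPM of the 5 tested members over the 6 libraries, among 9924 genes. They were C18orf54 (r = 0.999, log2 fold change -1.75), SLC35E2B (0.999, -1.03), LARS1 (0.999, -0.86), IL1R1 (0.999, -1.68) and RMI2 (0.999, -1.13). The 5 chromosome 4 genes themselves had r between 0.927 (CXCL2) and 0.997 (CXCL8), while CCL20 had 0.972, CCL5 0.882 and CXCL16 -0.906. Each of the 5 is part of the mean it was compared with, which raises its r, and CCL20, CCL5 and CXCL16 are not. The 6 points fall into 2 groups, so the values describe these libraries and carry no test.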

How the data were processed

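RNA was purified with an RNeasy kit and a sequencing company made the libraries, per the labels' protocols. Reads were checked with FastQC 0.12.1 and aligned to hg38 with STAR 2.7.11a, per the submitters' processing notes; not given in the sources used here were annotation release and trimming. Per gene and library, raw read counts were deposited by the authors, without strand and for each strand. The counts without strand were used. Lines naming no gene were left out. They held 24.0% to 24.1% of reads in shRNF20 libraries and 20.9% to 22.7% in shControl libraries. Among them, reads assigned to no feature made up 5.05% to 5.49% in shRNF20 libraries and 2.39% to 2.58% in shControl libraries.

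The test was edgeR 4.0.16 under R 4.3.3 (filterByExpr, minimum count 10; TMM; robust quasi-likelihood F-test; Benjamini-Hochberg over 15797 genes), with limma 3.58.1 and DESeq2 1.42.0 as alternatives; the fit was tested on simulated data. SE is the log2 fold change over the root of F. Means carry SD, n = 3. Symbols came from an identifier table and positions and exon lengths from GENCODE 29 (GRCh38), which may not be the authors' release. The chemokines, the lists and the rule for named genes (all members, the 2 smallest p of each list, every gene of a direction with 5 or fewer, and the 5 most alike) were chosen with earlier results of these data known. Named outside the rule after values were seen were CEBPB, TNF, NFKBIA, NFKBIZ, IL1RAP, MYD88, TRAF6, IRAK4, MAP3K7, IKBKB, CHUK, several markers and some neighbours. Promoter motifs were chosen after values or sequences were seen. Intervals cover counting error only.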

Additional observations from a re-analysis of the deposited data

How the results depend on the processing

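The 16 alternatives were DESeq2, limma-voom, upper quartile or RLE scaling, no filter on low counts, CPM of at least 1 in 3 libraries, a replicate block, the sum of the strand columns, no mitochondrial genes, the shRNF20 libraries summed to 1 sample, and each library left out in turn. None reversed a direction among the 8 tested chemokine genes. CXCL5, CXCL8, CCL20 and CCL5 kept their calls in every fit that held them (CCL5 was too low for the CPM filter). Samples with the same replicate number did not vary together (correlations of residuals -0.0163, 0.035 and 0.0284), and with the replicate block the median of the chromosome 4 genes was -1.55.

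With the shRNF20 libraries summed, 4 members were called lower and 0 higher, and all genes called numbered 1619 lower and 1753 higher; receptors called numbered 0, interleukin-1 and NF-kB genes 4, promoter factors 4, decay factors 3 and chromosome 4 neighbours 2. That fit has 4 samples and assumes that the lone shRNF20 sample varies like the controls; at an unadjusted p under 0.05 it had 1 member higher and 1 receptor lower. The median of the members outside chromosome 4 was -0.96 with the CPM filter, which drops CCL5, and -3.47 with no filter, which adds CCL2; without 1 library it ranged from -3.00 to -2.36. With no filter 4 receptors were called. Without 1 library the number of receptors called ranged from 1 to 3 and of promoter factors from 4, without shRNF20 replicate 2, to 10. The shRNF20 libraries differed less from each other than the controls (chi-square per degree of freedom 2.06 to 6.80 in shRNF20 and 31.9 to 51.5 in shControl). Depth limits CXCL6, CCL2 and most receptors, for which no difference was detectable.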
